A study of Mus musculus with 4 samples.

Results

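The genes described here are 9 that encode the surface glycoproteins and granule proteins of platelets, namely Pf4, Ppbp, Gp1ba, Gp1bb, Gp9, Gp6, Treml1, Clec1b and Rab27b, out of 22520 genes in the tables. They were chosen by symbol, not by a threshold on their values, but with earlier results of these data known. RNA-seq had been done on bone marrow of C57BL/6 mice after magnetic removal of cells with markers of mature blood lineages, which leaves mainly stem and progenitor cells; red cells had been lysed with ammonium chloride. The groups were wild type, with 2 mice, and a Cyba -/- knockout, with 2 mice, each mouse being 1 library. Cyba encodes p22phox, the membrane subunit of NADPH oxidases. The series title concerns stem cell number and the balance of myeloid and B-cell output in the knockout. How the knockout was made, and the age and sex of the mice, are not given in the sources used here, nor are the antibodies of the depletion kit. The column headers give the knockout libraries name stems that differ (CR and CRISP), which the labels do not explain, so whether both knockout mice are of the same line is not known here.

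Platelets are shed by megakaryocytes, which mature in the marrow from progenitors shared with red cells. A maturing megakaryocyte loads alpha granules with chemokines and adhesion proteins and dense granules with small molecules, and covers its surface with receptors that let platelets stick to a damaged vessel. The glycoproteins Ib and IX form the receptor for von Willebrand factor, glycoprotein VI binds collagen, and CLEC-2, the product of Clec1b, binds podoplanin. Platelets can make superoxide with NADPH oxidases after glycoprotein VI is engaged.

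Summed estimated counts were between 22427388 and 23705949 reads per library. The targeted gene Cyba was counted 1347 and 875 times in the wild-type mice against 28 and 32 times in the knockout mice, so each library matched its label. Its log2 fold change of -5.19 (SE 0.28) had an adjusted p of 0.315 by the edgeR quasi-likelihood test and of 1.61e-43 by DESeq2, so with 2 mice per genotype the former did not pass even the targeted gene. All 9 platelet genes were in the tables, all 9 were kept by the repair of the lost decimal points described under the processing, and all 9 were tested. Together they took 0.0268% and 0.0299% of the reads of the wild type libraries and 0.0148% and 0.0290% of those of knockout replicates 1 and 2. Knockout replicate 1 thus held the smallest share, while knockout replicate 2 lay between the wild type libraries.

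The 9 genes had lower means in the knockout, and 1 of its 2 libraries set most of that difference. The log2 fold change of knockout against wild type was below 0 for 9 of 9 genes, with a median of -0.44 and a range from -0.56 for Gp9 to -0.12 for Gp1bb. Over all 13873 tested genes the log2 fold change was below 0 for 50.9%, with a median of -0.0063. With the edgeR quasi-likelihood test and Benjamini-Hochberg adjustment over all tested genes, 0 of the 9 genes passed an adjusted p of 0.05, against 0% of all genes. By the same test 1 of the 9, Rab27b, had an unadjusted p under 0.05, against 3.26% of all genes in either direction and 0.476% lower in the knockout. DESeq2 called 0 of the 9 (0.231% of all genes in either direction, 0.00721% lower in the knockout), the edgeR likelihood ratio test 0 (0.195%) and limma-voom 0 (0%). Both knockout libraries lay below both wild type libraries for 2 of the 9, Gp9 and Rab27b, against 16.1% of all genes. For the other 7 genes the groups overlapped, because knockout replicate 2 lay within or above the wild type range. Without knockout replicate 1 the median log2 fold change of the 9 genes was -0.016, with 4 above 0 and 5 below, and without knockout replicate 2 it was -1.01. In bulk RNA, fewer cells of a type and less RNA per cell cannot be told apart.

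**Figure D1:**
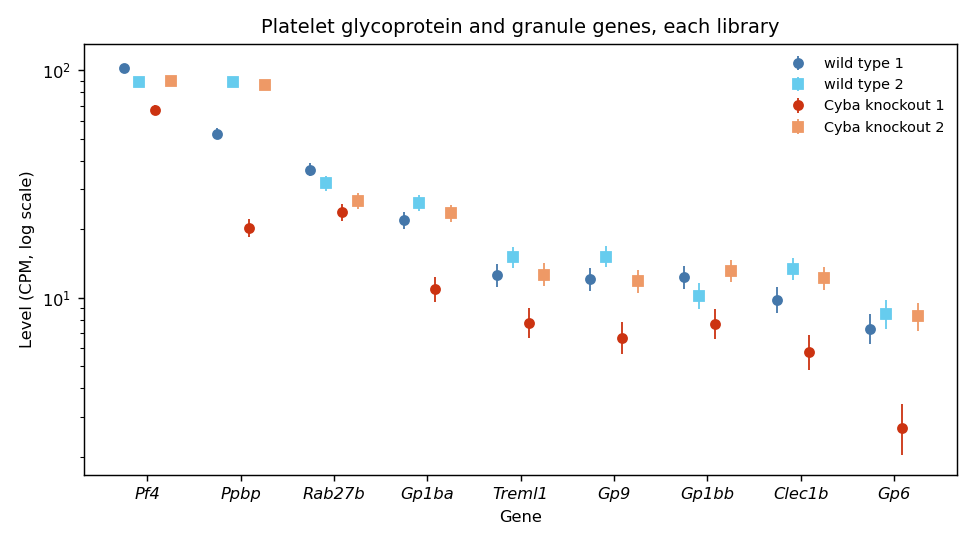
Level of each of the 9 genes in each library, in CPM (reads scaled to a common library size) on a log axis; points are single libraries, circles for replicate 1 and squares for replicate 2, and bars are exact 95% Poisson intervals of the read count, which cover counting error only. Knockout replicate 1 is the lowest point for 9 of 9 genes, and its interval lies below those of the other libraries for 7 of them.

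The alpha granule chemokines had the highest levels per transcript length of these genes, and they differed in how far they varied. Pf4 encodes platelet factor 4, a chemokine that binds heparin. Ppbp encodes pro-platelet basic protein, the precursor of a chemokine that attracts neutrophils. Pf4 (ENSMUSG00000029373, GRCm38 chromosome 5, 90772435 to 90773383, plus strand, protein-coding, 3 merged exons) and Ppbp (ENSMUSG00000029372, chromosome 5, 90768518 to 90770063, plus strand, protein-coding, 3 merged exons) are neighbours, with 2371 bases between them, and share no exonic base with another annotated gene. In CPM, which is reads scaled to a common library size, Pf4 stood at 103 and 89.2 for wild type against 66.9 and 89.6 for the knockout, replicate 1 first here and in all pairs that follow. The groups overlapped: both replicate 2 libraries had nearly the same level, and knockout replicate 1 lay below the rest. Its mean was 96.0 ± 9.62 CPM (SD, n = 2) for wild type against 78.3 ± 16.0 CPM (SD, n = 2) in the knockout, with a log2 fold change of -0.30 (SE 0.19, edgeR quasi-likelihood adjusted p = 0.843).

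Ppbp stood at 52.5 and 88.9 CPM in the wild type libraries against 20.4 and 86.0 CPM in the knockout libraries. It had the widest spread of the 9 genes, being 4.22-fold higher in knockout replicate 2 than in knockout replicate 1 and 1.69-fold higher in wild type replicate 2 than in wild type replicate 1. The 4 sequencing lanes of knockout replicate 1 held 126, 100, 114 and 118 Ppbp reads, and those of knockout replicate 2 held 479, 469, 513 and 552, so the lanes of a library were close to each other and far from those of the other. The exact 95% Poisson interval was 18.6 to 22.3 CPM in knockout replicate 1 and 82.3 to 89.8 CPM in knockout replicate 2. The log2 fold change between genotypes was -0.41 (SE 0.72, edgeR quasi-likelihood adjusted p = 0.887), smaller than its error. Without knockout replicate 1 it was 0.30, and without wild type replicate 2 it was 0.019. The ratio of Ppbp to Pf4 CPM within a library was 0.511 and 0.996 for wild type against 0.304 and 0.960 for the knockout, so these neighbours did not vary in proportion, and both replicate 1 libraries had the lower ratio.

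The promoters of these neighbours are shown because the genes lie side by side and varied to a different extent. Both are 300 bases of RefSeq sequence on GRCm38.p6, from 250 bases before the gene's start to 50 after it, read 5′ to 3′ on the plus strand. Pf4 spans chr5:90772185-90772484 and Ppbp spans chr5:90768268-90768567. Capitals mark matches to the cores GATAA (GATA factors), GGAAG (ETS factors) and TGTGGT (RUNX factors), searched on both strands. They also mark TGANTCA, where N is any base. This is looser than the NF-E2 and AP-1 core, which has C or G in the middle.
Pf4: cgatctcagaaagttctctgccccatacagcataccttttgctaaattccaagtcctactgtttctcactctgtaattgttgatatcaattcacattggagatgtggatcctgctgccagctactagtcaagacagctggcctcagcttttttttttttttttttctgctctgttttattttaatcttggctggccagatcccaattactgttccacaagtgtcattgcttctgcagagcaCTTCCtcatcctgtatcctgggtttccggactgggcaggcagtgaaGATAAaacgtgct
Ppbp: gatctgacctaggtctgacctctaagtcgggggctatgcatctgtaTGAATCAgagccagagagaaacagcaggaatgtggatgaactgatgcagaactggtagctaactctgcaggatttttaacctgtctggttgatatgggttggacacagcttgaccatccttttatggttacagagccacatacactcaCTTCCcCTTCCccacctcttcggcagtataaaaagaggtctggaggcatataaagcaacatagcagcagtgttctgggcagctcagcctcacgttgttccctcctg
In the Pf4 promoter the reverse complement of GGAAG begins 9 bases upstream of the start and GATAA begins 37 bases downstream. The Ppbp promoter held 2 copies of the reverse complement of GGAAG, 56 and 50 bases upstream, and 0 matches to GATAA in this window. Its 1 match to TGANTCA, 204 bases upstream, reads TGAATCA and so is not the NF-E2 and AP-1 core itself. No match to one motif shared a base with a match to another. Among 32851 promoters of the same length, GATAA or its reverse complement was in 25.4%, and on either strand GGAAG was in 71.4%, TGTGGT in 16.8% and TGANTCA in 7.81%. Promoters were found for 8 of the 9 genes, of which 5 held GATAA, 7 GGAAG, 1 TGTGGT and 2 TGANTCA, both of the latter as TGAATCA.

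The subunits of the von Willebrand factor receptor were all lowest in knockout replicate 1. Gp1ba encodes the chain of glycoprotein Ib that binds von Willebrand factor, Gp1bb its disulphide-linked partner, and Gp9 the glycoprotein IX that the complex needs to reach the surface. Gp1ba (ENSMUSG00000050675, chromosome 11, 70639122 to 70642036, plus strand, 2 merged exons) stood at 21.9 and 26.1 CPM for wild type against 10.9 and 23.5 CPM for the knockout. The groups overlapped, since knockout replicate 2 lay between the wild type libraries. Its log2 fold change was -0.48 (SE 0.40, edgeR quasi-likelihood adjusted p = 0.843), and -0.016 without knockout replicate 1.

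Gp9 (ENSMUSG00000030054, chromosome 6, 87778072 to 87779768, plus strand, 2 merged exons) stood at 12.1 and 15.2 CPM for wild type against 6.67 and 11.8 CPM for the knockout. Both knockout libraries were below both wild type libraries, but knockout replicate 2 lay close under wild type replicate 1, with counting intervals of 10.5 to 13.3 and 10.7 to 13.6 CPM. Its log2 fold change was -0.56 (SE 0.34, edgeR quasi-likelihood adjusted p = 0.843), the farthest from 0 of the 9 genes in this fit, and -0.19 without knockout replicate 1. With limma-voom Gp6 (-0.73) and Ppbp (-0.70) lay farther from 0 than Gp9 (-0.60). The ratio of Gp1ba to Gp9 CPM within a library was 1.81 and 1.72 for wild type against 1.64 and 1.99 for the knockout. The ratio of Gp1bb to Gp9 CPM varied more, at 1.02 and 0.672 for wild type against 1.15 and 1.11 for the knockout.

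The promoters of Gp1ba and Gp9 are shown because the ratio of these genes varied little between libraries. They are RefSeq sequence on GRCm38.p6 and the plus strand, chr11:70638872-70639171 for Gp1ba and chr6:87777820-87778119 for Gp9, with capitals as above.
Gp1ba: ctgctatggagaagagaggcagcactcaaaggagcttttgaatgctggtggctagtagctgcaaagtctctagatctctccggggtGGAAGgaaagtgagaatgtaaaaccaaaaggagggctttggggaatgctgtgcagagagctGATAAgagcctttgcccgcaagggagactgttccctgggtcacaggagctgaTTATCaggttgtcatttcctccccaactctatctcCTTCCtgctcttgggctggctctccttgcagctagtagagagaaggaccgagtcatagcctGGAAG
Gp9: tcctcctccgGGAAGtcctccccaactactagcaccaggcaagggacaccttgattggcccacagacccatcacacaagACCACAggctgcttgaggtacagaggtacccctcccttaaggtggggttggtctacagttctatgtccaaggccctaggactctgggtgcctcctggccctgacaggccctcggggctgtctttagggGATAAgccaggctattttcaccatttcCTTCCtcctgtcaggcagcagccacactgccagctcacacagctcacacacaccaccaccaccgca
Each held the reverse complement of GGAAG at 16 bases upstream of its start. Gp1ba held GATAA at 103 and its reverse complement at 51 bases upstream, and Gp9 held GATAA at 43 bases upstream. Gp9 also had the 1 match to TGTGGT among the 8 promoters, on the reverse strand and 171 bases upstream. The ratio of Treml1 to Gp9 CPM also varied little, at 1.04 and 0.991 for wild type against 1.17 and 1.07 for the knockout. Yet the Treml1 promoter held 0 matches to GATAA and 1 to the reverse complement of GGAAG, 193 bases upstream. Whether these matches bear on the ratios was not tested.

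Gp1bb (ENSMUSG00000050761, chromosome 16, 18620317 to 18622403, minus strand, 1 merged exon) stood at 12.3 and 10.2 CPM for wild type against 7.69 and 13.1 CPM for the knockout. Knockout replicate 2 was the highest library and knockout replicate 1 the lowest, so both wild type libraries lay between them. Its log2 fold change was -0.12 (SE 0.32, edgeR quasi-likelihood adjusted p = 0.929), 0.23 without knockout replicate 1 and 0.037 without wild type replicate 1. These values are uncertain in 2 ways. Of its exonic bases 92.9% are shared with Sept5 or Gm49601 on the same strand, so its counts depend on how reads were divided. All 16 of its deposited counts had more than 1 possible reading, and the repair settled them only when the libraries were tied together, which favours values that are alike.

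The signalling receptors Gp6 and Clec1b were also lowest in knockout replicate 1. Gp6 encodes glycoprotein VI, the collagen receptor that signals through the Fc receptor gamma chain. Gp6 (ENSMUSG00000078810, chromosome 7, 4363965 to 4397744, minus strand, 8 merged exons) stood at 7.33 and 8.47 CPM for wild type against 2.67 and 8.29 CPM for the knockout. Knockout replicate 1 stood apart, being 3.11-fold below knockout replicate 2, whereas the wild type libraries differed 1.16-fold. The log2 fold change was -0.53 (SE 0.57, edgeR quasi-likelihood adjusted p = 0.843) and 0.082 without knockout replicate 1. Of its 16 deposited counts 13 had more than 1 reading, and like Gp1bb it was settled only with the libraries tied. The reads of knockout replicate 1 were 15, 17 and 14 in the first 3 lanes, where the deposited values had 1 reading only.

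Clec1b (ENSMUSG00000030159, chromosome 6, 129397297 to 129409335, plus strand, 6 merged exons, 3.61% of exonic bases shared with Clec9a) encodes CLEC-2. Its level was 9.81 and 13.4 CPM for wild type against 5.78 and 12.2 CPM for the knockout, so the groups overlapped through knockout replicate 2. The log2 fold change was -0.37 (SE 0.43, edgeR quasi-likelihood adjusted p = 0.847) and 0.086 without knockout replicate 1. Of its 16 deposited counts 13 had more than 1 reading, in all 4 libraries, and they were settled with and without the tie between the libraries.

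Treml1 (ENSMUSG00000023993, chromosome 17, 48359916 to 48367176, plus strand, 5 merged exons) encodes TLT-1, a receptor stored in the alpha granule membrane and brought to the surface on activation. It stood at 12.6 and 15.1 CPM for wild type against 7.78 and 12.7 CPM for the knockout, and knockout replicate 2 was barely above wild type replicate 1. The log2 fold change was -0.44 (SE 0.30, edgeR quasi-likelihood adjusted p = 0.843) and -0.12 without knockout replicate 1. Its ratio to Gp9 CPM within a library was 1.04 and 0.991 for wild type against 1.17 and 1.07 for the knockout, so the ratio stayed within a narrow range while both genes were lowest in knockout replicate 1.

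Rab27b was the gene whose difference depended least on a single library. It encodes a small GTPase that takes part in the packaging and release of platelet granules, and it is not particular to platelets. Rab27b (ENSMUSG00000024511, chromosome 18, 69979131 to 70141605, minus strand, 9 merged exons) stood at 36.6 and 31.8 CPM for wild type against 23.8 and 26.7 CPM for the knockout. The groups did not overlap, and the libraries of each genotype were within 1.15-fold of each other. Its mean was 34.2 ± 3.35 CPM (SD, n = 2) for wild type against 25.3 ± 2.06 CPM (SD, n = 2) in the knockout. The log2 fold change was -0.44 (SE 0.15, unadjusted p = 0.0379 and adjusted p = 0.843 by the edgeR quasi-likelihood test), and leaving out each library in turn gave values from -0.53 to -0.33. The difference was thus larger than the spread within either genotype but did not pass the test over all genes. Of its 16 deposited counts 4 had more than 1 reading, and it was settled with and without the tie. The ratio of Rab27b to Pf4 CPM was 0.355 and 0.357 for wild type against 0.356 and 0.298 for the knockout.

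**Figure D2:**
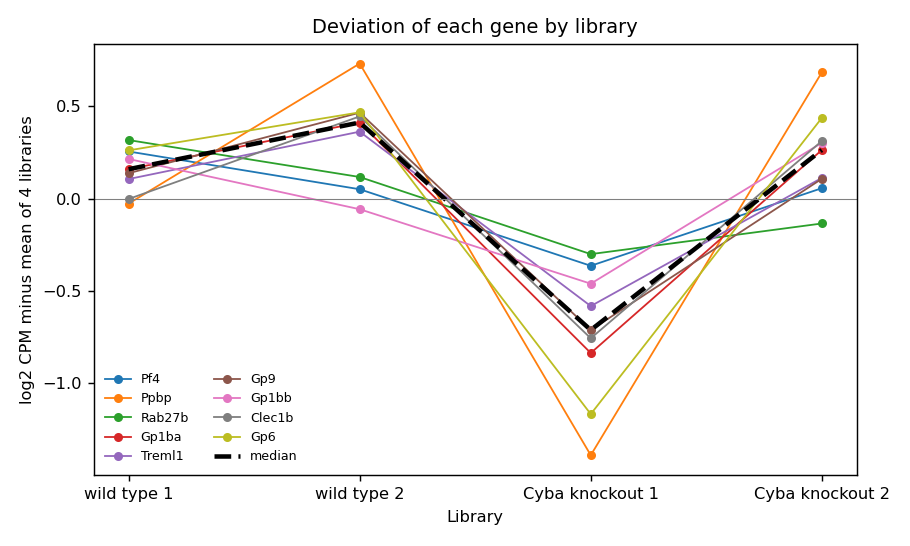
Log2 CPM of each gene minus its mean over the 4 libraries, by library; thin lines join the values of 1 gene and have no meaning between libraries, and the dashed line is the median of the 9 genes. The median was 0.16 and 0.41 for wild type against -0.71 and 0.26 for the knockout, with Ppbp and Gp6 lowest in knockout replicate 1.

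Seen across the genes, knockout replicate 1 was the lowest library for 9 of 9, against 33.2% of all tested genes. It lay at least 1.5-fold below knockout replicate 2 for 7 of 9, against 8.43% of all tested genes, the exceptions being Pf4 and Rab27b, while 8.26% of all tested genes lay as far the other way. These counts were chosen after the values were seen, and no test goes with them. Its exact Poisson interval was below those of the other libraries for 7 of 9 genes and touched at least 1 of them for Gp1bb and Rab27b. These intervals cover counting error only, not the spread between animals. The deviation of knockout replicate 1 ranged from -1.39 for Ppbp to -0.30 for Rab27b on the log2 scale. The distance between the knockout libraries differed between genes, from a fold of 1.12 between the knockout libraries for Rab27b and 1.34 for Pf4 to 3.11 for Gp6 and 4.22 for Ppbp.

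**Figure D3:**
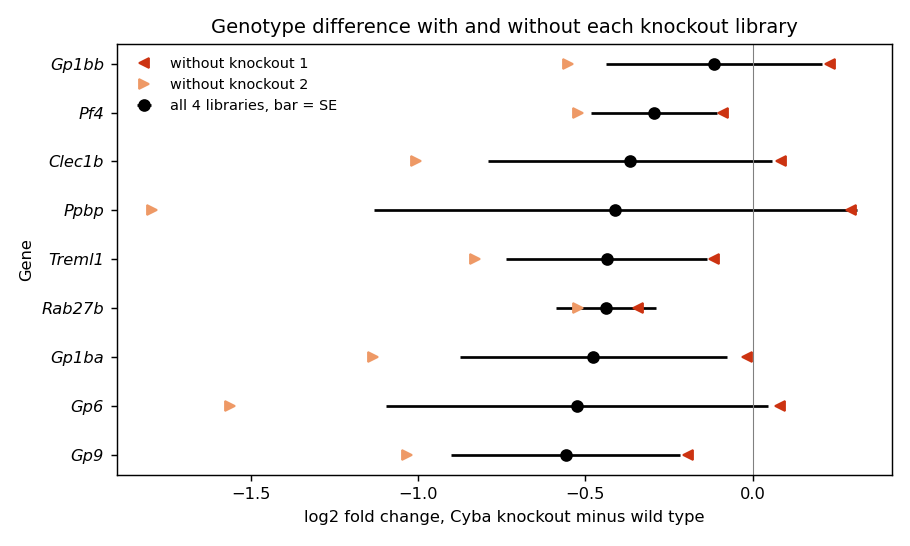
Log2 fold change of knockout against wild type for each gene, with all 4 libraries (black, bar = SE) and without each knockout library (triangles). Without knockout replicate 1 the values lie between -0.34 for Rab27b and 0.30 for Ppbp, and without knockout replicate 2 between -1.80 for Ppbp and -0.52 for Pf4.

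Levels per transcript length span a wide range among these genes. In TPM, Pf4 averaged 441 over the 4 libraries and Ppbp 63.3. Gp9 averaged 15.3 TPM, Clec1b 12.7 TPM, Treml1 10.5 TPM, Gp1bb 8.57 TPM, Rab27b 7.90 TPM and Gp1ba 7.33 TPM. Pf4 was above Ppbp and Ppbp above Gp9 in 4 of 4 libraries. Clec1b was above Treml1 and Treml1 above Gp1bb in 4 of 4 as well. Gp9 was above Clec1b in 3 of 4 libraries, Gp1bb above Rab27b in 2 of 4 and Rab27b above Gp1ba in 2 of 4, and these last 3 pairs of neighbours do not differ beyond their spread. In single libraries Pf4 stood at 501 and 463 TPM in wild type and 308 and 491 TPM in the knockout, and Ppbp at 52.6 and 90.9 TPM and at 18.6 and 91.0 TPM. The place of Gp1bb rests on the tie between the libraries in the repair, since with no tie it read 19.98 TPM, above Gp9, and was not settled. The TPM reading of Gp6 was not settled and is not given.

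In the lists of other platelet and megakaryocyte genes the fold changes lay on both sides of 0. These lists were not limited to genes that only megakaryocytes express, and bulk RNA does not tell which cells the reads came from. In each of them 0 genes passed the edgeR quasi-likelihood threshold in either direction, and 0 with DESeq2. Of 19 tested genes for other platelet surface receptors, 6 had a log2 fold change above 0 and 13 below (median -0.068), and knockout replicate 1 was lowest for 7. Itga2b, the alpha chain of the fibrinogen receptor and also a marker of early progenitors, had the most reads of the list, at 237 and 157 CPM for wild type against 213 and 185.5 CPM for the knockout. Ptgir, the prostacyclin receptor, had a higher mean in the knockout without overlap, at 6.15 and 4.99 against 9.69 and 9.78 CPM (log2 fold change 0.81, SE 0.22).

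Of 15 tested genes for other granule cargo, 8 were above 0 and 7 below (median log2 fold change 0.16). Vwf, von Willebrand factor, was at 97.7 and 87.4 CPM for wild type against 58.0 and 78.3 CPM for the knockout (log2 fold change -0.44, SE 0.19), with knockout replicate 1 the lowest library and with values that were settled only with the libraries tied. F5, coagulation factor V, was at 31.7 and 26.4 against 33.4 and 43.0 CPM. F13a1, the A chain of factor XIII, which monocytes also express, had the most reads of the list, at 655 and 422 CPM for wild type against 842 and 685 CPM for the knockout.

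For granule formation and secretion, 20 of 25 tested genes were above 0 and 5 below, with a median log2 fold change of 0.093. These genes act in lysosome-related organelles of many cells. Rab32, a small GTPase of dense granule biogenesis, stood at 55.4 and 31.9 CPM for wild type against 75.9 and 56.9 CPM for the knockout. Lyst, whose loss gives giant lysosomes and poor dense granules, stood at 113 and 63.9 against 146 and 117 CPM. Stxbp2, a partner of the secretory SNARE proteins, was at 152 and 133 against 171.5 and 160.5 CPM. Unlike Rab27b, these 3 genes had their lowest library in wild type replicate 2.

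Of 21 tested genes that signal below glycoprotein VI and CLEC-2, 16 were above 0 and 5 below (median log2 fold change 0.36). Fcer1g, the Fc receptor gamma chain that pairs with glycoprotein VI and with Fc receptors of myeloid cells, stood at 95.4 and 68.9 CPM for wild type against 131 and 120 CPM for the knockout (log2 fold change 0.61, SE 0.19), while Gp6 itself lay below 0. Ceacam1, an inhibitory receptor, stood at 37.4 and 27.1 against 56.5 and 64.0 CPM (log2 fold change 0.90, SE 0.20). Tln1, talin, had the most reads of the list, at 1001 and 793 against 994 and 886 CPM.

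Among cytoskeletal proteins and platelet enzymes 12 of 21 tested genes were above 0 and 9 below (median log2 fold change 0.13). Actn1, an actinin, stood at 39.96 and 31.1 CPM for wild type against 47.9 and 58.6 CPM for the knockout, Orai1, a calcium channel, at 28.6 and 16.4 against 39.4 and 30.8 CPM, and Flna, filamin A, at 1005 and 680 against 1181 and 982 CPM. The megakaryocyte transcription factors were split, 7 above 0 and 7 below of 14 tested (median log2 fold change 0.029). Zfpm1, the GATA cofactor FOG1, stood at 179 and 253 CPM for wild type against 98.6 and 176 CPM for the knockout (log2 fold change -0.65, SE 0.34), with knockout replicate 1 the lowest. Nfe2, needed for platelet release, was at 124 and 109 against 140 and 137 CPM, and Etv6, an ETS family repressor, at 254.5 and 181 against 264.5 and 220 CPM. These list medians moved when single libraries were left out. For the surface receptors the median was -0.29 without wild type replicate 2 and 0.20 without wild type replicate 1. Leaving out the same libraries gave -0.016 and 0.18 for the cytoskeletal and enzyme genes, -0.12 and 0.35 for the transcription factors, 0.077 and 0.56 for the signalling genes, and 0.029 and 0.22 for the secretion genes, of which 15 were above 0 and 10 below without wild type replicate 2. The median of the granule cargo was 0.048 without knockout replicate 1, 0.27 without knockout replicate 2 and 0.047 among genes with a CPM of at least 1 in 2 libraries. On log2(TPM + 0.1) the medians of the cytoskeletal genes (-0.065) and of the transcription factors (-0.023) were below 0.

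**Figure D4:**
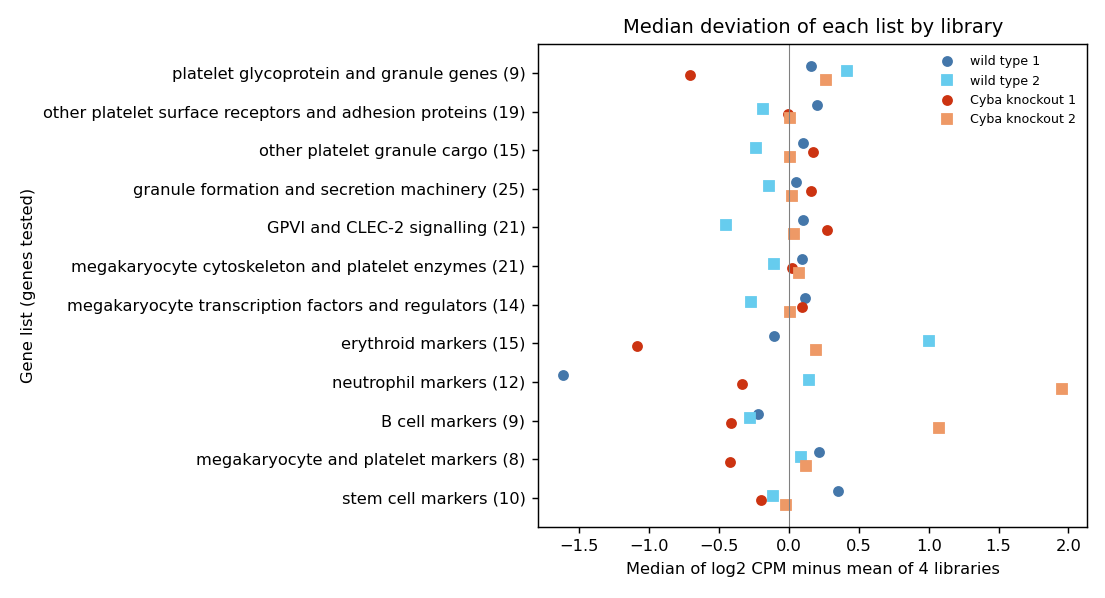
Median over each gene list of log2 CPM minus the mean of the 4 libraries, by library, with the number of tested genes in brackets. The 9 platelet genes have their low value of -0.71 in knockout replicate 1, as the erythroid markers have at -1.09, the megakaryocyte and platelet markers and the B cell markers at -0.42 each and the stem cell markers at -0.20, while the 6 lists of other platelet and megakaryocyte genes lie between -0.0051 and 0.27 in that library.

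Markers of other cells differed between the same libraries. The 15 tested erythroid markers had 15 of 15 log2 fold changes below 0 (median -0.89), with 0 passing by edgeR quasi-likelihood or DESeq2, and knockout replicate 1 was lowest for 15 of 15. This median was -0.20 without wild type replicate 2, -0.33 without knockout replicate 1, -1.32 without wild type replicate 1 and -1.65 without knockout replicate 2. Their summed level was 3471 and 7582 CPM for wild type against 1745 and 4557 CPM for the knockout. Neutrophil markers summed to 499 and 1384 CPM for wild type against 1232 and 5069 CPM for the knockout. Of them Chil3 alone passed by DESeq2 (log2 fold change 1.91, adjusted p = 0.00235). Their median log2 fold change was 1.72, and 0.16 without knockout replicate 2. B cell markers summed to 45.9 and 29.5 CPM for wild type against 67.1 and 75.8 CPM for the knockout. In knockout replicate 1 Cd79b alone stood at 28.0 CPM, and this library was the lowest for 4 of the 9 B cell markers. The median log2 fold change of the B cell markers was 0.96, and -0.16 without knockout replicate 2, so their rise rested on that library. Stem cell markers summed to 219 and 229 CPM for wild type against 148 and 189.5 CPM for the knockout. The 8 megakaryocyte and platelet markers (among them Itga2b, Gp5, Tubb1 and Vwf) were all tested and summed to 676 and 559 CPM for wild type against 546 and 607 CPM for the knockout, with 6 of 8 lowest in knockout replicate 1. Their median log2 fold change was -0.35, with 2 above 0 and 6 below, and -0.022 without knockout replicate 1. Genes of the stress response, in lists chosen after some of their values were seen, also differed between libraries. The heat shock gene Hspa1b stood at 16.8 and 18.9 CPM for wild type against 501 and 32.1 CPM for the knockout, and was thus far higher in knockout replicate 1 than in any other library. Its near-identical copy Hspa1a was not tested, and reads may be divided between them. The 10 tested heat shock genes summed to 10272 and 10424 CPM for wild type against 11343 and 7946 CPM for the knockout, with 6 of 10 highest in knockout replicate 1. The immediate-early genes, which respond quickly to handling of cells, were higher in both replicate 1 libraries than in both replicate 2 libraries for 14 of 14. They summed to 5331 and 1739 CPM for wild type against 5379 and 1543 CPM for the knockout. The share of all tested genes with either of these patterns was not counted, so the counts have no background. Across genes, libraries with a common replicate number were alike (correlation of deviations 0.61). The part of the stress response and of the makeup of the cells in the levels of the 9 platelet genes was not tested.

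The genes whose profile over the 4 libraries was most like the median of the 9 were Mrvi1, Gp5, Drp2, Ranbp17 and Slamf1, with root mean square differences from 0.0790 to 0.0839 on the log2 scale, among tested genes with a mean of at least 2 CPM over the libraries. Gp5, the glycoprotein V subunit that joins the von Willebrand factor receptor, stood at 27.7 and 30.7 CPM for wild type against 16.1 and 28.4 CPM for the knockout (log2 fold change -0.39, SE 0.31). Mrvi1, a partner of the inositol trisphosphate receptor in platelets and smooth muscle, stood at 31.7 and 34.8 against 17.3 and 30.4 CPM (log2 fold change -0.48, SE 0.30). Slamf1, the stem cell marker CD150, was at 4.55 and 6.28 against 2.76 and 5.26 CPM. The likeness is a description over 4 libraries and has no test.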

How the data were processed

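RNA-seq libraries of 4 mice were compared, 2 wild type and 2 Cyba knockout, grouped by sample title. Per the submitters' processing notes, Salmon, DESeq2 and GRCm38 were used; versions, annotation and strand setting are not given in the sources used here. The authors deposited, per the file headers, estimated counts (expected counts) and TPM values per gene for 4 lanes of each library. Numbers with 3 or more decimals and a whole part above 0 had lost their decimal point, which left 24.8% of the count values with more than 1 reading. Each gene was read jointly over its lanes, its TPM, its annotated length and, where still open, the decimals of its other libraries. The levels of the libraries were tied by a t distribution with 3 degrees of freedom and a scale of 0.2 (natural log). A gene stayed in when the error expected for all its library totals was at most 5% or 1 read, which left 22150 of 22520. With no tie 20455 were kept. Repaired lanes summed to between 1054128 and 1070899 TPM.

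Lane counts were summed and rounded. GENCODE vM21 named 22357 of the identifiers without their version. Tests used edgeR 4.0.16 quasi-likelihood in R 4.3.3 with TMM factors and its default filter, two-sided, adjusted over 13873 genes at 0.05, with DESeq2 1.42.0 and limma 3.58.1 as alternatives. The repair and the edgeR and DESeq2 fits were tested on simulated data with known readings and fold changes. CPM uses TMM-scaled library sizes, and SE is the log2 fold change divided by the root of F. The p-values weigh the difference between genotypes against an error from 2 mice per genotype, which the fits estimate partly from all genes. Promoters came from RefSeq; protein sequences were not used here. Named genes were the 9, Cyba, in each list the 2 genes with the smallest p and the 1 with the highest CPM, and the 5 nearest profiles; not all named this way are reported here. The genes and the lists were chosen with earlier results of these data known.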

Additional observations from a re-analysis of the deposited data

How the results depend on the processing

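The count of genes passing was 0 with edgeR quasi-likelihood (452 with an unadjusted p under 0.05), 32 with DESeq2, 27 with the edgeR likelihood ratio test and 1 with limma-trend on log2(TPM + 0.1), and 0 to 1 when each library was left out. The median log2 fold change of the 9 platelet genes was -0.48 to -0.43 under the 12 other scalings, filters, tests and repairs (8 of the 9 genes in both TPM fits, of which that on log2(TPM + 0.1) gave the -0.48, and 7 in the repair with no tie), and -1.01 to -0.016 when each library was left out, the first without knockout replicate 2 and the second without knockout replicate 1. Leaving out single libraries moved the log2 fold change of Ppbp from -1.80 to 0.30, of Gp1bb from -0.55 to 0.23, of Gp6 from -1.56 to 0.082 and of Clec1b from -1.01 to 0.086; no other of the 9 changed sign in any alternative, and none passed in any.

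With the replicate number of the titles as a block, 1157 genes passed and the median of the 9 platelet genes was -0.47. Of the 9, 0 passed, their adjusted p under the block being 0.0749 for Rab27b to 0.753 for Gp1bb. Across genes the deviations of libraries with a common number had a correlation of 0.61, but the labels give no reason to pair them. With no tie in the repair Gp1bb and Gp6 were left out, and the mean of Gp1bb read 19.98 TPM in place of 8.57.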
